A study of Homo sapiens with 6 samples.

Results

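The genes described here are the 10 SR splicing factor genes SRSF1, SRSF2, SRSF3, SRSF4, SRSF5, SRSF6, SRSF7, SRSF9, SRSF10 and SRSF11, out of 20098 protein-coding genes on chromosomes 1 to 22 and X. They were chosen by name as members of the SR family, by a rule that uses no measured value but was set with earlier results of these data known. For each gene a window was drawn over its body and 5 kb on each side, and the double-strand break (DSB) peaks lying in that window were described. DSBs were mapped by END-seq, in which an adapter is ligated to free DNA ends in agarose-embedded cells and sequenced, so that a break leaves reverse-strand reads to its left and forward-strand reads to its right. The cells were HCT116, a human colorectal carcinoma line grown in culture, mixed with mouse pre-B cells as a spike-in. They were left untreated (Ctrl) or received 10 µM camptothecin (CPT), a poison that traps DNA topoisomerase I on DNA, for 10 min (CPT10) or 20 min (CPT20), with 2 biological replicates in each of the 3 conditions. The sample titles give 10 and 20 as µM, and the protocol's reading as minutes at one dose was used. The peak lists of the 4 CPT-treated libraries were analyzed, one per strand, and untreated cells served only as control input when peaks were called. A difference from untreated cells is therefore not given at any gene, and the flanking DNA of the same library was used as reference instead. The 8 lists held between 286491 and 826744 peaks, with the longest list in CPT10 replicate 1 and both shortest lists in CPT20 replicate 2, so that list length moves with the library in every count below.

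SR proteins bind pre-mRNA through RNA recognition motifs and carry a tail rich in arginine-serine repeats, through which they recruit the splicing machinery to exons. Their phosphorylation by SR protein kinases, and by topoisomerase I acting as a kinase, changes where they sit in the nucleus and which splice sites they favor. Most SR genes are transcribed in nearly all cells, and topoisomerase I relaxes the supercoils that transcription leaves behind, which is why a topoisomerase I poison can damage transcribed genes.

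Gene bodies were those of the canonical transcript in hg19. SRSF1, a founding member that acts in both constitutive and alternative splicing, lies at chr17:56078280-56084607 on the minus strand. SRSF2, which marks exons for inclusion and also acts at promoters, lies at chr17:74730197-74733413 on the minus strand, and its window also touches METTL23 and the head-to-head gene MFSD11. SRSF3, the smallest SR protein and an adaptor in mRNA export, lies at chr6:36562139-36573377 on the plus strand. SRSF7, an export adaptor with a zinc knuckle, lies at chr2:38970741-38978503 on the minus strand beside GEMIN6. SRSF4, SRSF5 and SRSF6 are related proteins with a pair of RNA recognition motifs, and their genes lie at chr1:29474255-29508412 on the minus strand, chr14:70233859-70238722 on the plus strand and chr20:42086536-42092883 on the plus strand. SRSF9, a relative of SRSF1 with a short arginine-serine tail, lies at chr12:120899475-120907551 on the minus strand. SRSF10, which acts as a splicing repressor when dephosphorylated, lies at chr1:24290837-24306817 on the minus strand. SRSF11, which regulates alternative splice sites, lies at chr1:70687063-70718735 on the plus strand. With their flanks the windows measured 13.2 kb for SRSF2 to 44.2 kb for SRSF4.

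Sequences are shown for the places in these genes where peaks came back most firmly, read from the GRCh37 (hg19) assembly on the coding strand of each gene. The first pair are the 2 positions at which the forward lists of all 4 libraries had a summit within 150 bp of each other and the smallest of the 4 −log10 q-values was highest. The capitals mark the stretch that holds the 4 summits, which is chr17:74732439-74732511 in SRSF2 and chr6:36564533-36564559 in SRSF3.
SRSF2, exon 2, chr17:74732399-74732551, minus strand: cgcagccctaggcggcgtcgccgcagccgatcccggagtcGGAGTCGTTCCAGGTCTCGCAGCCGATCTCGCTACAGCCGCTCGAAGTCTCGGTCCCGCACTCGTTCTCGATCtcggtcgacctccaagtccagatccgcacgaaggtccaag
SRSF3, start of exon 2, chr6:36564493-36564599, plus strand: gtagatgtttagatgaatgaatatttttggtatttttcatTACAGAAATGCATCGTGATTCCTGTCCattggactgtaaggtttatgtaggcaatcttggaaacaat
The 6 other sequences are short stretches from the 6 clusters of paired sites that were found in both replicates at both times and had the highest smallest −log10 q-value. Each is the middle of the part of its cluster, outside annotated untranslated regions, that lay in peaks of the most lists, 8 of the 8 lists in SRSF2 and SRSF3 and 7 of 8 in the other 4, and no base is capitalized because no single position was marked. Past the 3′ end means past the end of the canonical transcript. The gene record of SRSF6 runs on to chr20:42094686 and includes the sequence so labeled.
SRSF2, past the 3′ end within METTL23, chr17:74729246-74729305, minus strand: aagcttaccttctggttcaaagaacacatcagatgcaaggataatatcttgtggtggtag
SRSF6, past the 3′ end, chr20:42092907-42092966, plus strand: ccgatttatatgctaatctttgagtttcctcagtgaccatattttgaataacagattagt
SRSF3, intron, chr6:36563289-36563348, plus strand: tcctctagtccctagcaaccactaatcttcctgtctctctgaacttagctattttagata
SRSF1, intron, chr17:56084030-56084089, minus strand: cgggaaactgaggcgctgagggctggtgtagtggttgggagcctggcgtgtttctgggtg
SRSF7, intron of the canonical transcript and exon of another, chr2:38974122-38974181, minus strand: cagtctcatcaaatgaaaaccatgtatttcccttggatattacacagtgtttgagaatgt
SRSF6, intron of the canonical transcript and exon of another, chr20:42087826-42087885, plus strand: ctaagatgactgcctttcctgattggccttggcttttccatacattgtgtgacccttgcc
Each of these sequences except that of SRSF3 exon 2 occurs once in the assembly over every run of 31 bases. In the SRSF3 exon 2 sequence 42.9% of the 31-base runs occur again elsewhere, with at most 3 places in all.

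Peaks covered a large part of most SR gene windows. The level used here is the percent of window bases that lie inside peaks, averaged over the forward and reverse lists of a library, and it was highest at SRSF1 and SRSF2. At SRSF1 it was 51.2% and 36.4% in the 2 CPT10 libraries and 53.1% and 42.0% in the 2 CPT20 libraries, or 45.7% ± 7.84 (SD, n = 4 libraries). At SRSF2 it was 41.8% and 38.7% after 10 min and 48.6% and 37.2% after 20 min, or 41.6% ± 5.07. The lowest value in either window was 36.4%, whereas the median over all 20098 genes was 5.17%.

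SRSF3, SRSF7, SRSF6 and SRSF5 formed the next levels. SRSF3 had 32.9% and 18.7% of its bases in peaks after 10 min and 36.8% and 22.2% after 20 min, with a mean of 27.7% ± 8.55. The mean was 25.7% ± 5.59 at SRSF7, 25.4% ± 3.89 at SRSF6 and 21.3% ± 1.65 at SRSF5, where the 4 libraries lay closest together, between 19.4% and 23.4%. These 4 genes overlapped each other in range, and all their values lay below the lowest value of SRSF2 while those of SRSF5 lay above the highest value of SRSF4, 17.3%. SRSF9 varied most. Its level was 24.4% and 10.8% after 10 min and 27.4% and 4.67% after 20 min, so that replicate 1 was higher than replicate 2 at both times and its range overlapped those of every gene from SRSF3 down to SRSF11 in the order of means. The longest genes had lower levels, with 11.2% ± 5.24 at SRSF4 and 9.80% ± 3.98 at SRSF11. In 9 of the 10 windows the mean exceeded the all-gene median, and the level at SRSF11, the lowest of the 9, was higher than in 88.3% of all genes. At SRSF1 and SRSF2 it was higher than in 99.98% and 99.96% of genes. Both genes lie on chromosome 17, and in each library their flanks held more peaks per kb than those of the other SR genes. The part of the wider region in their level was not tested. The median of the 10 SR genes was 23.4%, against 11.6% for 26 genes of SR protein partners (kinases, transport factors and other arginine-serine-rich splicing proteins) and 20.0% for 19 hnRNP genes, which encode another family of pre-mRNA binding proteins.

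**Figure D1:**
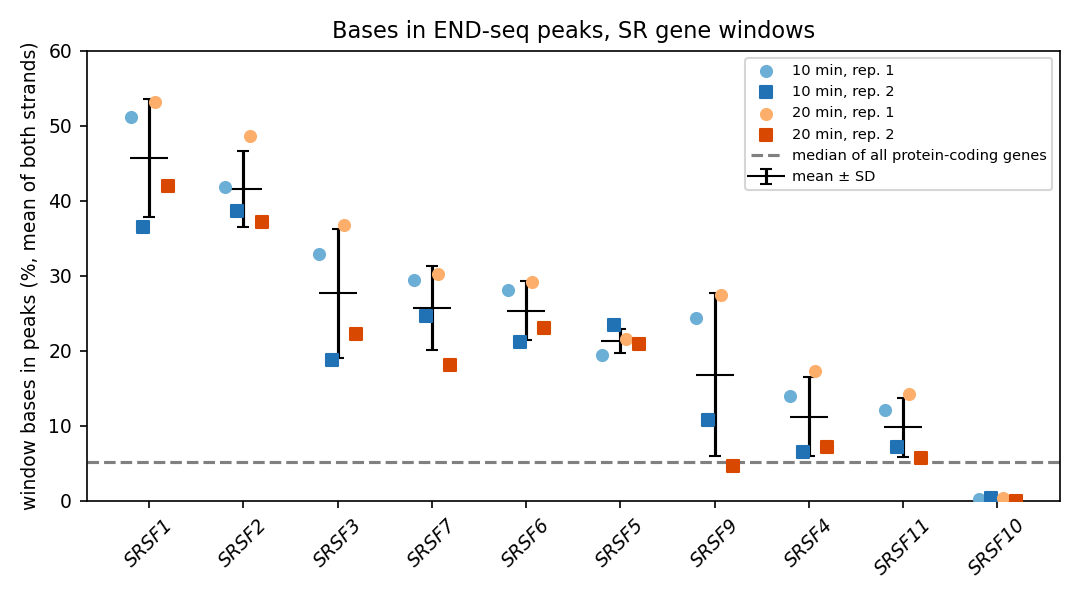
Percent of window bases inside END-seq peaks (y axis, mean of the forward and reverse lists) for each SR gene, with circles for replicate 1 and squares for replicate 2, blue for CPT10 and orange for CPT20. Black bars are the mean ± SD of 4 libraries and the dashed line is the median of all protein-coding genes, 5.17%. SRSF1 and SRSF2 lie highest and SRSF10 lies near 0 in all libraries.

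SRSF10 stood apart. Its window of 25981 bp held 1 peak in each of 3 libraries and 0 in CPT20 replicate 2, which is 3 peaks over the 8 lists, and its level was between 0 and 0.429%. Of all protein-coding genes 3.16% had 3 or fewer peaks. The window lies in a stretch of 100 kb, chr1:24260001-24360000, that held 4 peaks over all 8 lists, whereas bins of 10 kb on either side held between 10 and 27. PNRC2, a neighbor whose gene overlaps the window, lies in this stretch too. In the assembly 94.3% of the 31-base runs of the SRSF10 window occur more than once, compared with 8.96% to 19.5% in the other 9 windows. Of the 19625 runs that occur exactly 2 times, 19597 had a place on GL000191.1, an unplaced sequence of chromosome 1 that is 106433 bases long. The deposited lists name 8 peaks on this sequence, so it was part of the alignment target, and alignments with a mapping quality under 30 had been removed before peaks were called. The part of these copies in the low count at SRSF10 was not tested.

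To ask whether the peaks belonged to the SR genes or to the wider region, the peaks in each window were set against the number expected from the 100 kb on either side in the same library. The comparison was made as log2((peaks + 1)/(expected peaks + 1)), with limma fitted over all 19154 genes that had at least 10 peaks in the 4 libraries. All 9 SR genes that passed this filter were called higher than their flanks at an adjusted p under 0.05. Of all genes tested 14.4% were called higher and 3.45% lower, 30.4% had an unadjusted p under 0.05, and 10697 of 19154 had a ratio above 0 without regard to the test. The 36 gene and library pairs were all above 0. SRSF5 had 19, 19, 17 and 16 peaks in the 4 libraries (CPT10 replicates 1 and 2, then CPT20 replicates 1 and 2, an order kept below), with a log2 ratio of 1.61 ± 0.19 (SE, adjusted p = 2.80e-06 by limma). SRSF7 had 26, 24, 24 and 15 peaks and a log2 ratio of 1.56 ± 0.18 (adjusted p = 1.89e-06 by limma). Both genes are compact by their canonical transcripts. At SRSF5 the count moved little between libraries while the flanking count was 97, 66, 96 and 35, and at SRSF7 CPT20 replicate 2 was lower in the window and in the flanks, which held 125, 69, 118 and 29 peaks. The place of SRSF5 depends on the body used, since its gene record is 45.1 kb long and its canonical transcript 4.9 kb. With the gene record as body its log2 ratio was 0.86, below the 1.57 of SRSF7.

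SRSF6 and SRSF3 followed, with log2 ratios of 1.51 ± 0.20 and 1.32 ± 0.17. SRSF6 had 24, 22, 17 and 19 peaks and SRSF3 had 29, 18, 30 and 24. At both genes CPT20 replicate 2 gave the highest ratio, 2.34 at SRSF6 and 2.11 at SRSF3. The ratio was 1.07 ± 0.18 at SRSF2, 1.04 ± 0.17 at SRSF9, 0.83 ± 0.16 at SRSF1, 0.81 ± 0.14 at SRSF4 and 0.74 ± 0.14 at SRSF11, and the highest adjusted p of the 9 was 0.000755 at SRSF1 (limma). SRSF1 ranked first by level and seventh of 9 by this ratio, and its flanks held 0.51 to 1.08 peaks per kb, more in each library than those of any other SR gene. The flanks of SRSF2 came next in each library, with 0.29 to 0.855 peaks per kb. The median log2 ratio was 1.07 over the 9 SR genes and 0.05 over all genes tested. With a stricter peak threshold of −log10 q of at least 10, SRSF9 no longer passed (log2 ratio 0.91, adjusted p = 0.0895 by limma), and the other 8 genes remained called.

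**Figure D2:**
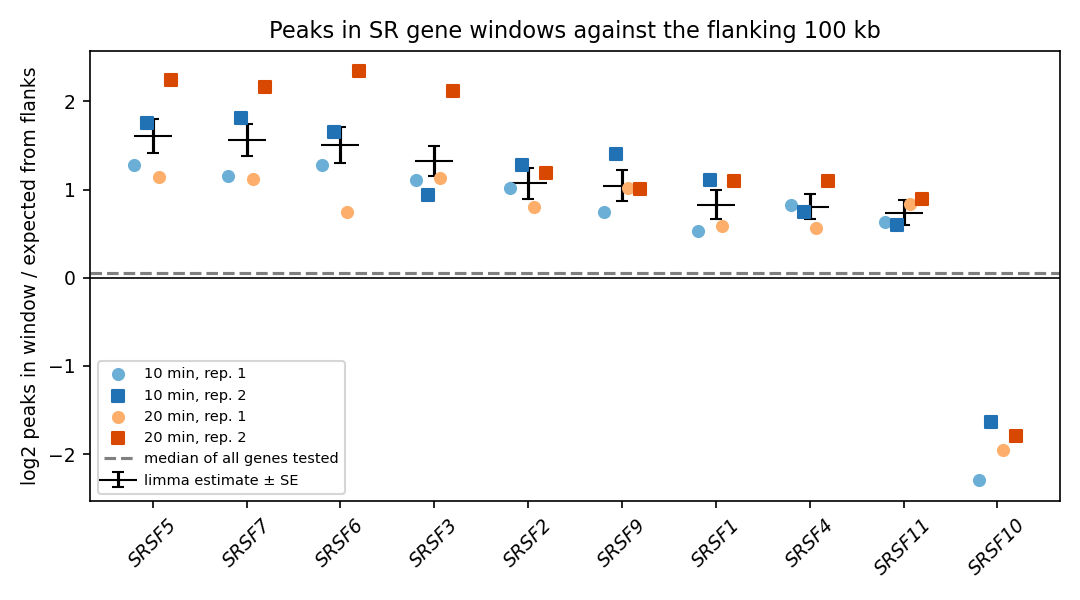
Log2 ratio of peaks in each SR gene window to the number expected from the flanking 100 kb on each side (y axis), by library, with symbols as for the levels. Black bars are the limma estimate ± SE, the dashed line is the median of all genes tested, 0.05, and SRSF10, which held 3 peaks, was not fitted. All 36 points of the other 9 genes lie above 0.

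Among the SR protein partners 20 of 26 genes were called higher than their flanks and 1 was called lower, with a median log2 ratio of 0.65. The strongest were TRA2B (1.59 ± 0.15), an SR-like regulator of exon inclusion, RBM39 (1.18 ± 0.14), PNN (1.33 ± 0.17), U2AF1 (1.33 ± 0.17), a subunit of the factor that recognizes the 3′ splice site, and SRRM2 (1.26 ± 0.18), a scaffold of nuclear speckles. All 19 hnRNP genes were called higher, with a median of 1.25, led by HNRNPA2B1 (1.94 ± 0.15) and HNRNPK (1.74 ± 0.15). No difference between the lists was tested.

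A break was taken as a paired site when a reverse peak overlapped the closest forward peak or ended less than 150 bp before it. The 10 windows held 50 and 43 sites in the CPT10 libraries and 46 and 33 in the CPT20 libraries. Replicated sites, which overlapped a site of the other replicate of the same time, lay in 8 of 10 SR windows after 10 min and in 6 after 20 min, against 10.7% and 10.4% of all genes, and 9.51% and 11.1% of the 10121 genes with windows in the SR length range. They lay in 12 of 26 partner windows at each time, and in 14 of 19 hnRNP windows after 10 min and 16 after 20 min. Without regard to replication, 8 SR windows held a site in each of the 4 libraries. So did 21 of 26 partner windows and 17 of 19 hnRNP windows, 24.7% of all genes and 15.7% of those of like length. SRSF1, SRSF2, SRSF3, SRSF5, SRSF6 and SRSF7 had replicated sites at both times, SRSF4 and SRSF11 after 10 min only, and SRSF9 and SRSF10 at neither time. SRSF9 did hold 4 sites in each CPT10 library, at places that did not overlap, and 8 and 0 in the CPT20 libraries.

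Clusters were called persistent when replicated at both times, transient when replicated at 10 min and not at 20 min, and late in the opposite case. SR genes held 13 persistent, 4 transient and 2 late clusters. With lists cut to equal length they held 9, 1 and 6, so that the order of transient and late clusters turned, and replicated sites at 10 min lay in 6 windows instead of 8. A persistent cluster lay in 6 of 10 SR windows, against 3.56% of all genes and 4.01% of those in the SR length range. Such clusters were found in 6 of 26 partner windows and in 10 of 19 hnRNP windows. Overlapping peaks were paired in either order, any overlap between replicates counted, and the genes of like length were not matched for bases in peaks. How far the counts and widths of clusters follow from the bases in peaks was not tested. Among neighboring peaks without overlap, an excess of the break order was not detectable, as given below. SRSF1, SRSF3 and SRSF6 had 3 persistent clusters each, SRSF5 had 2 and SRSF2 and SRSF7 had 1, and 0.219% of all genes had 3 or more. Transient clusters lay in 4 SR windows, against 8.35% of all genes and 6.68% of those of like length, and late clusters in 2, against 8.24% and 8.71%. Transient clusters lay in 10 of 26 partner windows and 11 of 19 hnRNP windows, and late clusters in the same numbers of each.

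The persistent clusters of the compact genes ran over much of the gene. The cluster of SRSF1 at chr17:56078725-56084938 was 6214 bp wide and reached from just upstream of the 5′ end to 5882 bp downstream of it. In the 4 libraries the best paired site had a −log10 q of 24.4, 10.7, 33.5 and 19.9. The cluster of SRSF7 at chr2:38971225-38977381 was 6157 bp wide and lay within the gene body, with −log10 q of 12.1, 7.44, 15.1 and 12.03. At SRSF2 a cluster of 6419 bp at chr17:74726569-74732987 began in exon 1 and had 56.5% of its bases past the 3′ end, where it overlapped METTL23, with the highest values of all, 57.3, 26.1, 46.5 and 27.2.

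SRSF3 carried its 3 persistent clusters across the body, one over the 5′ end (chr6:36561177-36564747, −log10 q of 42.2, 10.7, 17.6 and 27.2), one in the middle (chr6:36566000-36568659) and one within the last exon (chr6:36569963-36571569). At SRSF6 a pair of short clusters, 924 and 1246 bp wide, lay in the first part of the gene. Another at chr20:42091588-42094664 straddled the 3′ end of the canonical transcript and lay within the longer gene record, with −log10 q of 20.8, 14.4, 17.4 and 12.03. At SRSF5 one cluster lay over the body (chr14:70235367-70237145) and another wholly past the 3′ end (chr14:70238922-70240492). The median width was 2449 bp in the SR windows, against 1725 bp for the 931 persistent clusters of the genome. At SRSF4 the single cluster was transient, 831 bp wide and 17090 bp into the gene at its midpoint, and in SRSF11 a transient cluster of 1408 bp lay in an intron 1786 bp from the 5′ end. Their smallest −log10 q was 1.85 at SRSF4, the lowest of all clusters in the SR windows, and 4.66 at SRSF11. Some persistent clusters lay below the latter. Their smallest −log10 q was 1.91 for the 1246 bp cluster of SRSF6, 2.49 for the last-exon cluster of SRSF3, and 2.57 for a cluster each at SRSF1 and SRSF5.

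**Figure D3:**
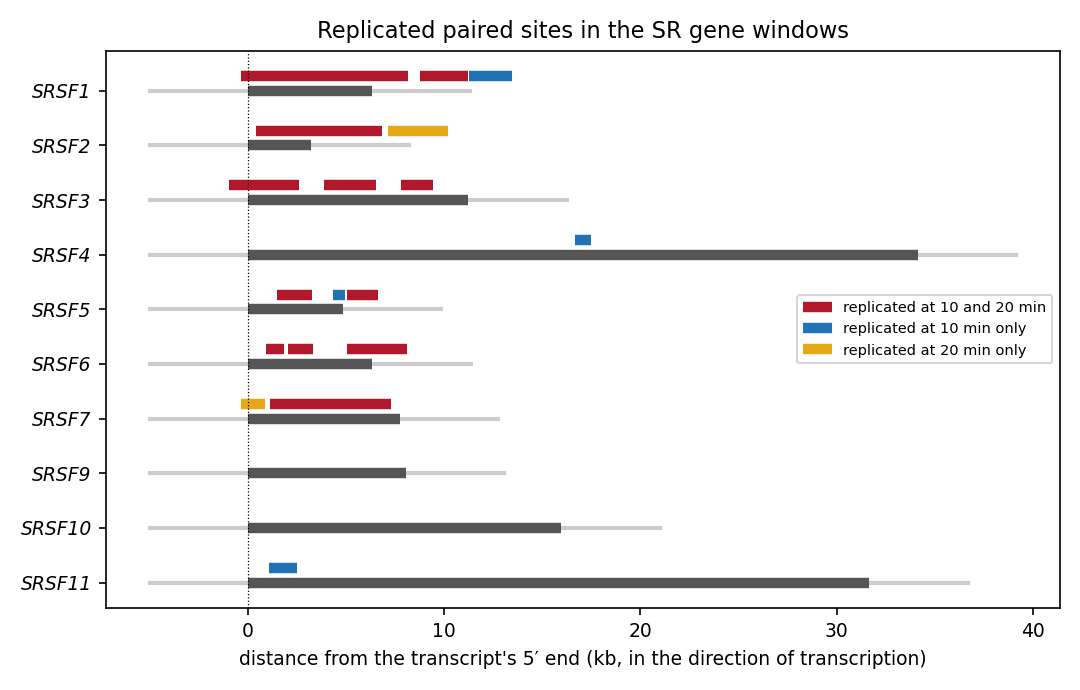
Position of replicated clusters in the 10 SR gene windows, as distance from the transcript's 5′ end in kb along the direction of transcription (x axis). Dark bars are gene bodies, gray lines the windows with 5 kb on each side, and colored bars the 13 persistent (red), 4 transient (blue) and 2 late (yellow) clusters. No cluster has its midpoint upstream of the 5′ end, and SRSF9 and SRSF10 have none.

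Peaks lay downstream rather than upstream of the 5′ ends. Summits within 5 kb downstream and within 5 kb upstream, summed over the 10 genes, numbered 72 against 31 and 82 against 22 in the CPT10 libraries, then 74 against 42 and 62 against 7 in the CPT20 libraries. The log2 ratio averaged 1.74 ± 0.99 (SD, n = 4 libraries), and the ratio was largest in the library with the shortest lists. By bases in peaks, the first 5 kb downstream held 31.9% to 43.0% over the 4 libraries and the 5 kb upstream 2.13% to 13.4%. For all protein-coding genes the same stretches held 4.58% to 11.3% and 2.91% to 8.49%. In hnRNP genes they held 26.5% to 37.9% and 7.18% to 19.2%, and in partner genes 14.3% to 26.8% and 3.51% to 14.1%. The upstream level of the SR genes thus overlapped that of all genes, while the downstream level lay above that of all genes in each library, as it did in both related lists. In 36 of 40 gene and library pairs the downstream stretch held more bases in peaks, and in 8 of 10 genes it did so in all 4 libraries, the exceptions being SRSF9 and SRSF10. The pairs repeat the same genes across libraries and are not independent. All protein-coding genes as a group were also higher downstream in each library. They held 9.31% against 7.43% and 5.48% against 4.20% after 10 min, then 11.3% against 8.49% and 4.58% against 2.91% after 20 min. Counts by gene are not given for other genes, so those of the SR genes stand without a background.

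The 5 kb past the 3′ end held 16.5% to 33.0% of bases in peaks, against 3.05% to 8.98% for all genes. The range was 9.29% to 23.8% for hnRNP genes and 5.42% to 17.5% for partner genes. SRSF2 and SRSF1 had the most, 58.4% ± 9.03 and 49.9% ± 10.3 (SD, n = 4 libraries), next to 12.1% ± 6.96 and 11.6% ± 9.45 upstream of their 5′ ends. The stretch past SRSF2 overlaps METTL23, and that past SRSF1 overlaps another annotated protein-coding gene. The part of these neighbors in the peaks was not tested. SRSF2 and SRSF5 are shorter than 5 kb, so that their first 5 kb downstream run past the 3′ end as well. In none of the genes did the 3′ stretch exceed the first 5 kb downstream in all 4 libraries. Of the 13 persistent clusters 5 reached past the 3′ end of the canonical transcript and 2 lay wholly beyond it, one at SRSF1 and one at SRSF5. All 19 clusters, transient and late ones included, had their midpoints downstream of the 5′ end. Upstream flanks made up 21.8% of the bases of the windows, and so did the flanks past the 3′ end. The positions of clusters in other genes are not given, so these counts stand without a background.

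**Figure D4:**
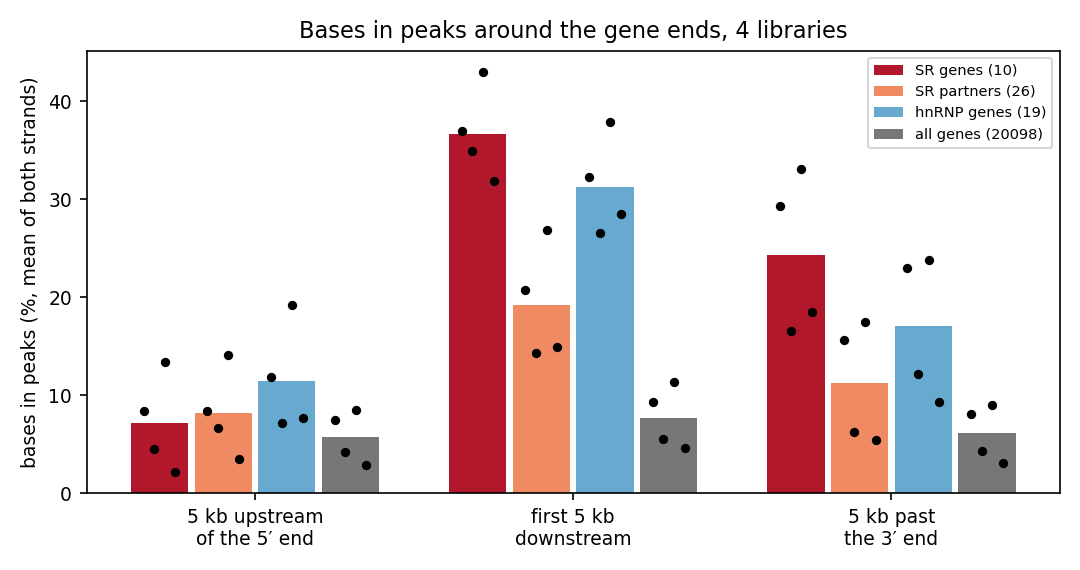
Percent of bases inside peaks (y axis, mean of both strands) in the 5 kb upstream of the 5′ end, the first 5 kb downstream and the 5 kb past the 3′ end, for the SR genes, their partners, hnRNP genes and all protein-coding genes. Bars are means and black points the 4 libraries. The SR genes range from 31.9% to 43.0% just downstream of the 5′ end and from 2.13% to 13.4% upstream. The hnRNP genes range from 26.5% to 37.9% and from 7.18% to 19.2%.

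Single peaks of great height stood out at SRSF2 and SRSF3. The fold enrichment given by the authors relates the height of a summit to the height expected in that list. In exon 2 of SRSF2, which codes for part of the arginine-serine-rich tail, the forward lists had a summit with a fold of 56.9 and 34.0 in the CPT10 libraries and 80.2 and 40.8 in the CPT20 libraries. The summits lay within 72 bp of each other, 902 to 974 bp from the 5′ end, in the capitalized stretch printed above. The −log10 q-values were 213, 83.7, 307 and 112. By its highest forward peak SRSF2 exceeded 99.67% to 99.93% of all genes in the 4 libraries, and by its highest reverse peak 98.46% to 99.28%. The highest reverse peak lay elsewhere, and in CPT20 replicate 1 it overlapped the window with its summit past the window's edge. The recurrent reverse summit in the same exon and the intron next to it had a fold of 6.46 to 11.8. The stretch also overlaps an exon of MFSD11, and the miRNA gene MIR636 overlaps the printed sequence.

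In SRSF3 the recurrent forward summits lay within 26 bp of each other at the start of exon 2, where the coding sequence begins. Their fold was 13.5, 59.4, 9.41 and 12.9, so that CPT10 replicate 2 alone stood high. As given above, part of this exon has copies elsewhere in the genome, and the part of those copies in the peak was not tested. In all, the SR windows held 10 places where the 4 libraries had a summit of the same strand within 150 bp, 8 in forward and 2 in reverse lists, spread over SRSF1, SRSF2, SRSF3, SRSF7 and SRSF11. At 2 of them, both in SRSF2, the first and the last summit lay in an exon, and at 4 more one of these lay in an exon and the other in an intron. The other recurrent places had folds of 2.88 to 27.3. Coding sequence made up 3.86% and untranslated regions 11.3% of the bases of the 10 windows. No count of recurrent places is given for other genes, so these numbers stand without a background.

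**Figure D5:**
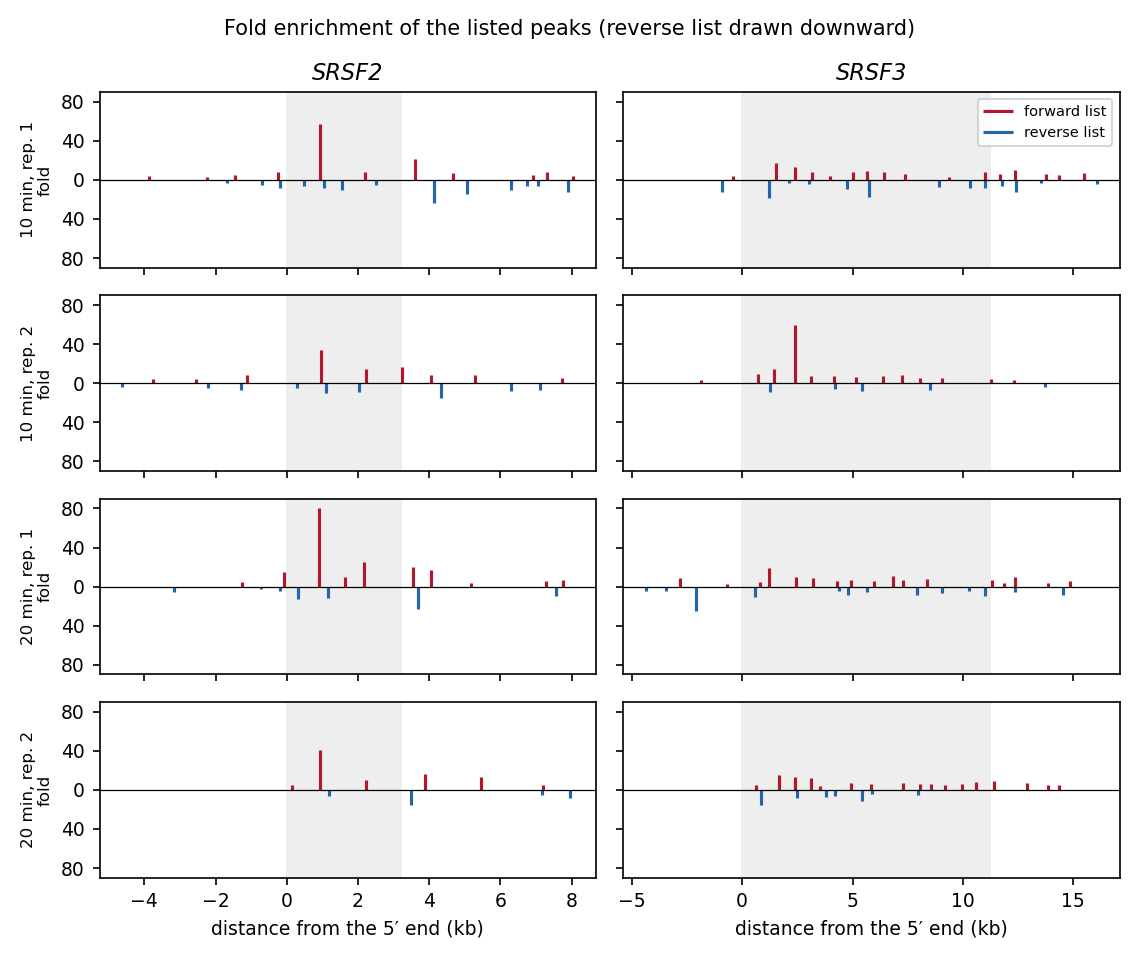
Fold enrichment of each listed peak (y axis, forward list upward in red, reverse list downward in blue) against the distance of its summit from the 5′ end in kb (x axis) in the windows of SRSF2 and SRSF3, one row per library. The gray area is the gene body. The tall forward peak of SRSF2 recurs in all 4 libraries with a fold of 34.0 to 80.2, while the tall peak of SRSF3, 59.4, is found in CPT10 replicate 2.

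The share of SR genes with a called difference between forward and reverse peaks was near that of all genes. Forward and reverse peaks of a window were compared after correction for the lengths of both lists, with limma over the same 19154 genes, of which 12.6% were called higher in forward and 12.5% in reverse peaks and 38.4% had an unadjusted p under 0.05. SRSF11 had 22, 15, 27 and 17 forward peaks and 15, 11, 15 and 2 reverse peaks, a log2 ratio of 1.19 ± 0.29 (SE, adjusted p = 0.0108 by limma). SRSF3 had 16, 13, 17 and 17 forward against 13, 5, 13 and 7 reverse peaks, a log2 ratio of 0.87 ± 0.26 (adjusted p = 0.0297 by limma). The forward excess was present in all 4 libraries of both genes, and these 2 of 9 SR genes were called, a share no higher than the background in both directions together. SRSF5 had 24 forward and 47 reverse peaks over all libraries and SRSF4 52 and 87, with log2 ratios of −0.79 ± 0.30 and −0.62 ± 0.23, which missed the threshold (adjusted p = 0.0677 and 0.0610 by limma). Both passed with lists cut to equal length, at −0.90 each (adjusted p = 0.0461 and 0.0260 by limma). SRSF5 also passed at −log10 q of at least 3, at −1.08 (adjusted p = 0.0308 by limma). Over all alternatives, fits without a library included, SRSF5 passed in 4 and not in 10. SRSF4 passed in 3 and not in 11, and SRSF6, with its forward excess, in 1 and not in 13.

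The calls of SRSF11 and SRSF3 were lost without any of 3 libraries and kept without CPT20 replicate 1, where the ratios were 1.63 and 1.07 (adjusted p = 0.000444 and 0.0121 by limma). Without CPT20 replicate 2, in which SRSF11 had its 2 reverse peaks, the ratio of SRSF11 was 0.75 with an adjusted p of 0.077 (limma) and that of SRSF3 0.67 with an adjusted p of 0.156. Without CPT10 replicate 1 or replicate 2 the limma fit called 0 of all genes, while the ratio was 1.05 or 1.34 at SRSF11 and 0.99 or 0.75 at SRSF3. The other 5 SR genes had log2 ratios of −0.29 to 0.59, none past the threshold. Among the partners 2 genes had more forward and 5 more reverse peaks, among them SRPK1 (−0.97 ± 0.20), the kinase that phosphorylates SR proteins, and TNPO3 (−1.15 ± 0.19), the importin that carries them to the nucleus. Of the hnRNP genes HNRNPD (0.81 ± 0.25) and HNRNPUL1 (−0.71 ± 0.22) were called.

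No change between 10 and 20 min of CPT could be shown for the SR genes. The 10 windows together held 256 and 201 peaks in the CPT10 libraries and 247 and 153 in the CPT20 libraries. Scaled to 1000000 listed peaks these were 180, 191, 202 and 266, or 186 ± 7.55 after 10 min and 234 ± 45.2 after 20 min (SD, n = 2), a log2 difference of 0.32 (two-sided exact permutation p = 0.33, the smallest that 2 against 2 libraries allow). The higher mean at 20 min came mostly from CPT20 replicate 2, the library with the shortest lists. Paired sites on the same scale were 35.2 and 40.9 after 10 min and 37.6 and 57.4 after 20 min (exact permutation p = 0.667), and without CPT20 replicate 2 the log2 difference was −0.012 instead of 0.29. By limma-voom 0 of 19154 genes were called between the times at an adjusted p of 0.05, and 772 (4.03%) had an unadjusted p under 0.05, none of them an SR gene. Log2 differences of the 9 SR genes ran from −0.06 ± 0.37 at SRSF2 to 0.64 ± 0.32 at SRSF3, where peaks per library went from 29 and 18 to 30 and 24 (adjusted p = 0.995 by limma). With 2 libraries per time, p-values here measure the spread between these libraries only.

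Pairs of neighboring peaks were also counted in both orders, because a break puts the reverse peak first and the opposite order gives an internal background. Without overlap and less than 150 bp apart, the SR windows held 14, 14, 13 and 8 reverse-then-forward pairs and 14, 8, 12 and 4 forward-then-reverse pairs. The ratios were 1.00, 1.75, 1.08 and 2.00, and each 95% Wilson interval included 1, from 0.484 to 2.06 in the first library and from 0.641 to 6.24 in the last. Over the whole lists the ratios were 1.01, 1.08, 1.04 and 1.14. An excess of the break order in SR genes was thus not detectable at these numbers.

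By base composition the SR genes differed little from other genes, apart from the strand asymmetry of G and C. The windows had a median GC content of 43.2%, against 44.7% for all genes. GC skew, the excess of G over C on the coding strand as a percent of both, had a median of 11.5% in the first 2 kb of the 10 SR genes and 3.99% in all genes, whose middle range from lower to upper quartile was −1.03% to 9.03%. Skew was highest at SRSF7 (19.2%), SRSF5 (18.2%), SRSF1 (14.5%) and SRSF6 (13.5%), and lowest at SRSF9 (−2.69%) and SRSF2 (4.07%). These values describe the reference sequence, and a relation with the peak levels was not tested.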

How the data were processed

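END-seq libraries were aligned to hg19 (with the mouse spike-in to mm10), and per the methods the authors removed alignments that were not properly paired or had a mapping quality under 30, kept duplicates, and called peaks with MACS2 for each library and strand at a q-value of 0.05 with the control library as input and no local background. The processing tools named in the labels are Trim Galore, Bowtie2, SAMtools and MACS2. Each deposited list gives a score per peak, a fold enrichment as a linear ratio over the expected height, its p and q as −log10 values, and the position of the summit. Blacklist removal and the read-count test against untreated cells, which the study applied, were not repeated. Read depth was not used here, and the number of peaks per list, 286491 to 826744, is only a rough stand-in for it. In CPT10 replicate 1 the forward list held 591881 peaks and the reverse list 826744. The lowest −log10 q in these 2 lists was 1.85 and 1.32, so that their effective cutoffs differed.

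Peaks overlapping a window by 1 bp were counted for all 20098 protein-coding genes of GENCODE on GRCh37. The gene body was the canonical transcript (19819 genes) or else the gene record, a choice made after seeing the data. Pairing used bedtools 2.31.1, tests limma 3.58.1 in R 4.3.3 with Benjamini-Hochberg adjustment over all genes tested, and other steps Python with NumPy and SciPy. Scripts for the fits were tested on simulated data. The SR genes, both comparison lists (26 partner and 19 hnRNP genes) and the measures were chosen with earlier results of these data known. All 10 SR genes are described. Of the other lists at most 5 genes past the threshold are named in each comparison, by adjusted p. Recurrent summits, bases in peaks by region, sequence copies and GC skew were added after the data were seen. Intervals cover counting error only, and labels do not say whether same-numbered replicates belong together. Alternatives were −log10 q of at least 3 or 10, lists of equal length, other flanks, pairing distances, filters, pseudocounts and scalings, and leaving out each library.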

Additional observations from a re-analysis of the deposited data

How the results depend on the processing

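The 9 calls of SR genes against their flanks held under all alternatives tried, including the gene record as body, which was chosen after seeing the data, except that SRSF9 was lost at −log10 q of at least 10. With the gene record the log2 ratio was lower at SRSF5 and SRSF9, 0.86 and 0.54 (adjusted p = 0.00054 and 0.0109 by limma). With no filter beyond 1 peak SRSF10 was also tested and was called lower than its flanks (log2 ratio −1.92, adjusted p = 0.000436 by limma). The number of all genes called in that comparison was 1161 at −log10 q of at least 10, against 3420, and 1667 to 5204 without a library. Forward against reverse calls numbered 4796 over all genes, 133 at −log10 q of at least 10 and 0 to 5513 without a library. SR genes called higher in forward peaks numbered 1 at −log10 q of at least 3 and 1 with no flank (SRSF11 in both), 0 at −log10 q of at least 10 and 0 to 2 without a library. Between 20 and 10 min, 3094 genes were called at −log10 q of at least 10 (1531 higher and 1563 lower), where lists of replicate 2 held 8283 to 11423 peaks and those of replicate 1 70842 to 125907, and SRSF9 was then lower by a log2 difference of −1.09 (adjusted p = 0.000414 by limma). Leaving out a library gave 0 to 3 such calls. The log2 difference of the totals ranged from 0.12 to 0.52 for peaks and from −0.012 to 0.60 for sites without a library. With the replicate block the values were 0.32 and 0.29, as without it, and 0 genes were called; the pairing by number rests on 2 pairs. The log2 ratio of site order, 0.45, was −0.88 at −log10 q of at least 10 and 0.29 to 0.60 without a library. The log2 ratio of downstream to upstream summits was 2.996 at −log10 q of at least 10 and 1.30 to 2.05 without a library. Persistent, transient and late clusters numbered 4, 0 and 3 at −log10 q of at least 10, and late clusters 4 at −log10 q of at least 3. Replicated sites have no value without a library, since the time concerned then has 1 list pair. The cause of these changes was not tested. Short lists limit the number of replicated sites that can be found.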
